A study of Homo sapiens with 10 samples.

Results

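SNAR-C1 and SNAR-H encode snaRs, a family of short structured noncoding RNAs. Both were chosen from values of these same arrays, in which they were among the lowest genes with the bEV from L. rhamnosus, so their levels are given as a description without a test. They are 2 of 8 SNAR genes named in the probe table and 2 of 14884 genes in all. SNAR-C1 has several probe sets, and values are those of its brightest probe set over the 10 arrays unless stated.

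RNA of HEK293T cells, which derive from human embryonic kidney and express SV40 large T antigen, was hybridized to 10 Human Gene 2.0 ST arrays (Affymetrix). Bacterial extracellular vesicles (bEVs) from 8 strains were applied for 6 h at the maximum tolerated dose of each strain, with 1 array per bEV (L. acidophilus, L. rhamnosus, L. plantarum, L. salivarius, S. thermophilus, L. paracasei, L. fermentum and Lc. lactis, spelled Lc. lactics in the labels), beside 2 arrays of control cells, whose handling the labels do not describe further. Triplicate RNA was pooled before hybridization according to the methods, so an array shows no spread among cultures, and dose and strain cannot be told apart. Nothing says whether the 2 controls came from separate cultures. The treatment protocol in the labels mentions another agent, Pk2, and several bEV titles spell the line HEK294T to HEK297T, while the cell line entry is HEK293T for every array. Of the listed cell markers, 2 of 5 for this line and 3 of 9 for other cell types were measured. VIM and LIN28B, both expected in this line, had mean control signals of 7.87 and 8.43, and ALB, DCN and PECAM1, markers of liver, fibroblasts and endothelium, had 2.65, 1.88 and 2.13.

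The snaR genes are transcribed by RNA polymerase III, which also makes tRNAs, 5S rRNA and several other short structured RNAs. The RNAs fold into long hairpins that proteins with double-stranded RNA binding motifs can bind. They were first found in the parent line of these cells, and are known to be abundant in many immortalized lines and in testis, with low levels in most other tissues. Most copies lie in tandem arrays on chromosome 19, where the members of a subset are nearly identical in sequence.

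RefSeq (GRCh38.p14) lists 28 SNAR genes. The 8 with a symbol on the array had 14 probe sets, and these held only 10 distinct sets of values, because some probe sets carried the same number in every array. SNAR-C1 (chromosome 19, RNA of 120 bases) had 5 probe sets with 2 distinct sets of values, and SNAR-H (chromosome 2, RNA of 120 bases) had 1 probe set. The signal of a probe set named for 1 copy may include RNA of its close copies, and the copies cannot be told apart here. The SNAR-A genes, the most numerous subset, were not analysed here.

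SNAR-H was lower with each of the 8 bEVs than in either control, a separation that held for 4.07% of all genes. The log2 signal was 10.28 in control 1 and 10.02 in control 2. With bEVs from L. rhamnosus it was 8.93, with L. paracasei 9.08, with L. plantarum 9.08, with L. acidophilus 9.19, with L. fermentum 9.25, with Lc. lactis 9.31, with S. thermophilus 9.49 and with L. salivarius 9.84. Controls and bEV arrays did not overlap, and the bEV from L. salivarius came closest to the controls, 0.18 below control 2. The mean of the 8 bEV arrays was 9.27 ± 0.29 (SD, n = 8) against 10.15 for the controls, a log2 difference of -0.88 or 1.84-fold lower signal. The controls themselves were 0.26 apart.

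In single arrays, SNAR-H was 2.33-fold lower with L. rhamnosus than the mean of both controls, and 2.10-fold lower with L. paracasei and with L. plantarum. At the methods' cutoff of 1.5-fold (0.58 on the log2 scale), SNAR-H was lower with 7 of 8 bEVs, all but L. salivarius, where it was 1.24-fold lower. Of all 14884 genes, 2.18% were lower by 1.5-fold with L. rhamnosus, 2.01% with L. paracasei, 2.51% with L. plantarum, 1.94% with L. acidophilus, 1.71% with L. fermentum, 1.89% with Lc. lactis, 1.96% with S. thermophilus and 1.63% with L. salivarius. Control 2 was lower than control 1 by 1.5-fold at 2.68% of genes. Against control 2 alone, the log2 difference with S. thermophilus was -0.53, short of the cutoff.

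SNAR-C1 showed a smaller difference in the same direction. Its log2 signal was 12.78 in control 1 and 12.73 in control 2, a gap of 0.05. With bEVs it was 11.93 for L. rhamnosus, 12.02 for L. plantarum, 12.21 for L. paracasei, 12.26 for L. acidophilus, 12.32 for S. thermophilus, 12.33 for L. fermentum, 12.45 for Lc. lactis and 12.55 for L. salivarius. All 8 bEV arrays lay below both controls, as for 4.07% of all genes. The bEV mean was 12.26 ± 0.21 (SD, n = 8) against 12.76 for the controls, a log2 difference of -0.50 or 1.41-fold lower signal. Only the arrays of L. rhamnosus (1.78-fold lower) and L. plantarum (1.66-fold lower) reached 1.5-fold, 2 of 8.

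The size of the difference for SNAR-C1 depended on the probe set. The 2 probe sets used above had identical values in all 10 arrays, and the other 3 shared a second set of values, with a log2 signal of 10.63 in control 1, 10.75 in control 2 and a mean log2 difference of -0.61. In this second set, 5 of 8 bEVs reached 1.5-fold, and the lowest array was that of L. plantarum (9.82) instead of L. rhamnosus (9.88). All 8 bEV arrays again lay below both controls. Both sets therefore gave the same direction in every array, while the count at 1.5-fold rested on which set was read.

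**Figure D1:**
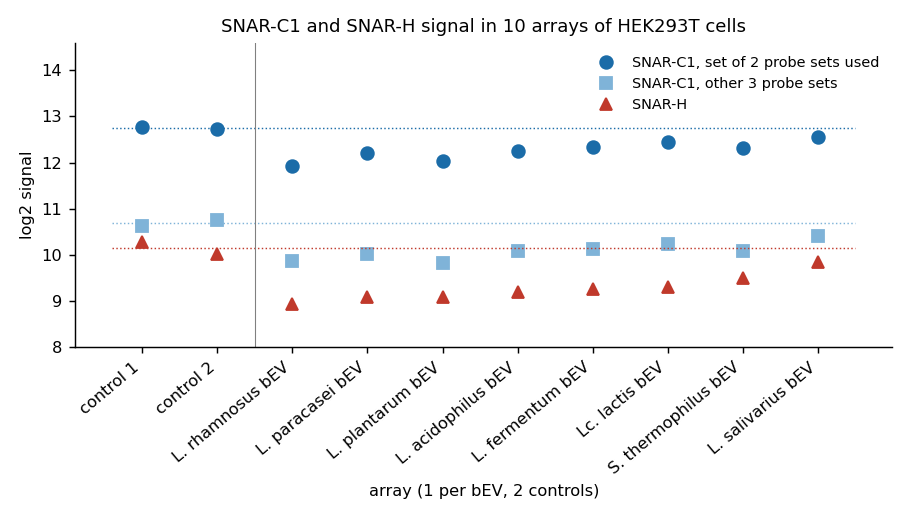
Log2 signal (vertical axis) in 2 control arrays and 8 bEV arrays (horizontal axis, ordered by SNAR-H), with 1 point per array for SNAR-H (red triangles) and for both sets of SNAR-C1 values (dark circles and light squares), and a dotted line at the control mean of each. Every bEV point lies under its dotted line, and the array of L. salivarius lies nearest to it in all 3 series.

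Array by array, SNAR-H differed more from the controls than SNAR-C1 did with all 8 bEVs, by an amount that depended on the SNAR-C1 values and on the controls. The log2 difference of SNAR-H minus that of SNAR-C1 was -0.38 ± 0.15 (SD, n = 8) and ranged from -0.54 with Lc. lactis to -0.11 with L. salivarius. The same quantity differed by -0.21 between control 2 and control 1. With the second set of SNAR-C1 values the mean was -0.27 ± 0.16 (SD, n = 8), from -0.41 with L. rhamnosus to -0.02 with L. salivarius, and the controls were further apart than this mean (-0.38). In the brighter set, both genes were lowest with L. rhamnosus and highest with L. salivarius among the bEVs. L. plantarum and L. salivarius, which were applied at the same dose, lay far apart for SNAR-C1, with log2 differences of -0.73 and -0.20, and had -1.07 and -0.31 for SNAR-H. These strains were measured once each, so a difference between them has no replicate check. In bulk RNA from 1 line, fewer cells that contain the RNA and less RNA per cell cannot be told apart.

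The other 6 SNAR genes of the array, SNAR-B1, SNAR-D, SNAR-F, SNAR-G1, SNAR-G2 and SNAR-I, were not picked for their values, though they come from the same arrays and may share signal with the pair. All 6 had a lower bEV mean than control mean. SNAR-G2 had a log2 difference of -0.86 (SE 0.17, limma adjusted p = 0.288), from 9.55 and 9.40 in the controls to 8.34 to 9.16 in the bEV arrays (median 8.56). SNAR-F had -0.80 (SE 0.21, limma adjusted p = 0.319), SNAR-D had -0.67 (SE 0.16, limma adjusted p = 0.288) and SNAR-B1 had -0.52 (SE 0.14, limma adjusted p = 0.335). The smallest differences were those of SNAR-G1 at -0.31 (SE 0.18, limma adjusted p = 0.534) and SNAR-I at -0.26 (SE 0.15, limma adjusted p = 0.525). SNAR-G1 and SNAR-G2 belong to the cluster of the chorionic gonadotropin beta genes, and SNAR-I is the copy on chromosome 3.

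With limma over the 8 bEV arrays and 2 controls, 0 of these 6 genes passed an adjusted p of 0.05, as did 0 of all 14884 genes (0%). At an unadjusted p under 0.05, there were 4 of the 6 and 1682 of all genes. Separation from the controls was seen for SNAR-B1, SNAR-D and SNAR-G2, whose 8 bEV arrays all lay below both controls, as for 4.07% of all genes. SNAR-F had 7, SNAR-I had 6 and SNAR-G1 had 4 of 8 arrays below both controls. For SNAR-G1 the controls were 0.72 apart (6.23 and 5.52), more than the difference between groups, and against control 2 alone the sign turned (0.05). SNAR-F also varied between controls (7.68 and 7.14), with 7.20 for L. salivarius lying between them.

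The bEVs also differed in how far these 6 genes lay from the controls. The median log2 difference over the 6, without SNAR-C1 and SNAR-H, was -0.84 with L. plantarum, -0.71 with L. rhamnosus, -0.71 with L. paracasei, -0.58 with L. acidophilus, -0.56 with L. fermentum, -0.53 with Lc. lactis, -0.52 with S. thermophilus and -0.19 with L. salivarius. The median of all genes lay between -0.004 and 0.014 in these arrays. With L. rhamnosus, L. plantarum and L. paracasei 4 of the 6 were lower by 1.5-fold, with L. acidophilus, L. fermentum, Lc. lactis and S. thermophilus 3 each, and with L. salivarius 0. Of all genes, 1.63% (L. salivarius) to 2.51% (L. plantarum) were lower by 1.5-fold in these arrays. Between the controls, all 8 SNAR genes were lower in control 2, with a median log2 difference of -0.27 to control 1. L. paracasei had the lowest value of SNAR-G2 (8.34) and of SNAR-I (4.65), and L. plantarum that of SNAR-F (6.25) and SNAR-G1 (5.32).

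**Figure D2:**
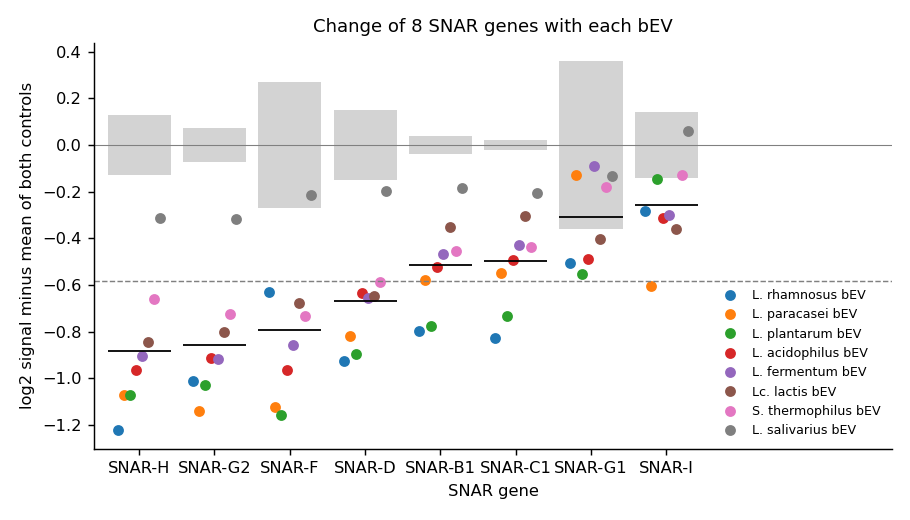
Log2 difference of 8 SNAR genes between each bEV array and the control mean (vertical axis), with 1 coloured point per bEV, a black line at the mean of the 8, a grey band that spans the 2 controls and a dashed line at 1.5-fold lower. The points of SNAR-H, SNAR-G2, SNAR-D, SNAR-B1 and SNAR-C1 lie wholly under the band, while 1 point of SNAR-F and several of SNAR-G1 and SNAR-I lie within it.

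Ranked by the mean difference of the 8 bEVs, SNAR-H was number 4 from the lowest of 14884 genes, SNAR-G2 number 6, SNAR-F number 11 and SNAR-D number 30, while SNAR-B1 and SNAR-C1 were numbers 109 and 131. The place of SNAR-H and SNAR-C1 in this order follows from how they were chosen. Across all genes, 0.417% had a bEV mean lower by 1.5-fold, and among the 6 SNAR genes outside the chosen pair 3 did. In single arrays, SNAR-H was number 8 from the lowest with L. rhamnosus and number 1464 with L. salivarius, and SNAR-C1 was number 78 and number 2781.

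**Figure D3:**
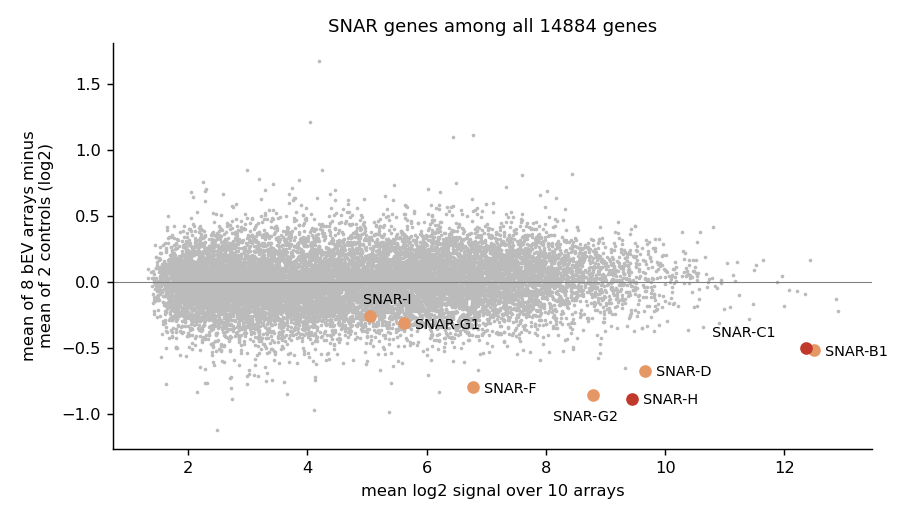
Mean of the 8 bEV arrays minus mean of the 2 controls (vertical axis, log2) against the mean log2 signal over 10 arrays (horizontal axis) for 14884 genes in grey, with SNAR-C1 and SNAR-H in red and the other 6 SNAR genes in orange. SNAR-H at -0.88, SNAR-G2 at -0.86 and SNAR-D at -0.67 lie below the grey cloud at their signal, and SNAR-G1 and SNAR-I lie within it.

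Over the 10 arrays, SNAR-H followed SNAR-D (Pearson r = 0.986) and SNAR-G2 (0.985) most closely within the family, and SNAR-C1 followed SNAR-B1 (0.995). The r between SNAR-C1 and SNAR-H was 0.935, or 0.854 over the 8 bEV arrays alone. Outside the family, the 5 genes most alike to SNAR-H were EIF4A3, the helicase of the exon junction complex (0.946), SUPT4H1, a subunit of a transcription elongation factor (0.939), GYG2, a glycogenin (0.932), RRP36, a ribosomal RNA processing factor (0.932), and RHBDF2, an inactive rhomboid protease (0.927). For SNAR-C1 they were CDC123, an assembly factor of eIF2 (0.948), EIF4A3 (0.948), CENPX, a centromere protein (0.940), SUPT4H1 (0.938) and AURKC, an Aurora kinase (0.931). EIF4A3 and SUPT4H1 stood in both groups of 5, with log2 differences between bEV and control means of -0.26 and -0.32. These correlations run over arrays that share normalization and the same 2 controls, and they are the highest of all genes, so they describe the pattern only.

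Genes around the loci showed no common direction. Of the 5 nearest measured genes on each side of SNAR-C1, 4 of 10 lay below the control mean, with a median log2 difference of 0.03, beside 0.001 for all genes. EHD2, which acts in membrane traffic at caveolae, had -0.49 (limma adjusted p = 0.437), CRX, a transcription factor of photoreceptors, had -0.33 (limma adjusted p = 0.536), and CABP5, a calcium-binding protein, had 0.17 (limma adjusted p = 0.859). For SNAR-H, 5 of 10 neighbours lay below the control mean, with a median of -0.01. The microRNA gene MIR4264 had -0.26 (limma adjusted p = 0.447), at signals of only 1.21 to 1.62 in the bEV arrays. REG3G, an antibacterial lectin, had -0.26 with a signal near 3, while MRPL19, a protein of the mitochondrial ribosome, had 0.18 (limma adjusted p = 0.544). No neighbour passed limma. Only 4 of 10 neighbours of SNAR-C1 and 4 of 10 of SNAR-H reached the median gene signal of 4.63.

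Of the 20 listed proteins that bind double-stranded RNA or process it, 10 were measured, and 0 passed limma in either direction (median log2 difference 0.12). XPO5, the export receptor of microRNA precursors, was higher than both controls in all 8 bEV arrays, by 0.16 (8.91 to 9.01 against a control mean of 8.79, limma adjusted p = 0.512), a separation that held for 5.11% of all genes. SON, a nuclear speckle protein, had a log2 difference of 0.22, and DGCR8, the partner of Drosha, had -0.36. EIF2AK2, the kinase PKR, had 0.14, and DHX9, an RNA helicase, had 0.10.

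RNA polymerase III itself showed mixed values. Of 18 listed subunits 8 were measured, with a median of 0.07. POLR3C was higher than both controls in all 8 bEV arrays, as for 5.11% of all genes, by 0.30 (limma adjusted p = 0.341). POLR3G, an isoform of the same subcomplex that is typical of stem and tumour cells, had -0.24. POLR2F, a subunit shared with the other polymerases, had -0.21, with all 8 bEV arrays below both controls, a separation seen for 4.07% of all genes. Among factors and regulators, 7 of 22 were measured, with a median of -0.10. MAF1, the repressor of this polymerase, had -0.18, and GTF3A, which binds the 5S rRNA gene, had -0.17, both with all 8 bEV arrays below both controls. MAX, the partner of MYC, had -0.14. None of these genes passed limma (lowest adjusted p = 0.341). LHB, the 1 measured gene of the chorionic gonadotropin beta cluster, had -0.16 (limma adjusted p = 0.773).

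Other transcripts of RNA polymerase III had smaller differences than SNAR-H, which was chosen for its low values. They ranged from -0.44 to 0.02, which overlaps the range of the SNAR genes outside the pair (-0.86 to -0.26). Of the 6 transcripts measured, 5 lay below the control mean, with a median of -0.24 beside 0.001 for all genes, and 0 passed limma. RMRP, the RNA of RNase MRP, was 13.07 in both controls and 12.69 to 13.03 with bEVs, a difference of -0.22 (limma adjusted p = 0.467). All 8 of its bEV arrays lay below both controls, as for 4.07% of all genes. RPPH1, the RNA of RNase P, had -0.34 (limma adjusted p = 0.452). The vault RNA gene VTRNA1-3 had -0.44 (limma adjusted p = 0.586). It was 7.41 with L. rhamnosus and 7.75 with L. fermentum, against 6.60 with S. thermophilus, 6.67 with L. acidophilus and 6.74 with L. plantarum. SNAR-H was 9.08 with L. plantarum and 9.19 with L. acidophilus. With S. thermophilus, the lowest array of VTRNA1-3, SNAR-H was 9.49, the highest among the bEVs after L. salivarius. SNAR-H was lowest with L. rhamnosus and next lowest with L. paracasei, where VTRNA1-3 was 7.48. VTRNA1-1 had -0.27 at a signal near 3. Over the 10 arrays, Pearson r with SNAR-H was 0.72 for RPPH1, 0.70 for RMRP, 0.38 for VTRNA1-3 and 0.35 for VTRNA1-1. It was 0.26 for VTRNA1-2 and 0.15 for VTRNA2-1. Among the bEVs, RPPH1 was, like SNAR-H, highest with L. salivarius (6.87, against 6.11 to 6.52 with the others), while RMRP was highest with L. fermentum (13.03).

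All 8 SNAR RNAs are 119 to 128 bases long, and the RNA was extracted on silica columns (RNeasy Mini Kit), which are known to retain RNAs under about 200 bases poorly. The other measured RNA genes under this length were therefore set beside them. Of the 18 that are not microRNAs (14 scaRNAs of Cajal bodies and the 4 vault RNAs), 15 lay below the control mean, and 0 passed limma. All 8 bEV arrays lay below both controls for 1 of the 18 (5.56%), beside 4.07% of all genes. The median log2 difference of the 18 was -0.18, beside 0.001 for all genes, with a range of -0.44 to 0.35. The 4 vault RNAs are also among the 6 transcripts of RNA polymerase III above, so these lists overlap. Of the 18, 8 reached the median gene signal of 4.63. SCARNA1 had -0.42 and SCARNA15 had -0.41. By array, their median was -0.32 with S. thermophilus, -0.27 with L. acidophilus, -0.25 with L. plantarum, -0.20 with L. paracasei, -0.19 with Lc. lactis, -0.10 with L. rhamnosus, -0.04 with L. fermentum and 0.01 with L. salivarius. It was thus below 0 in 7 of 8 arrays and nearest to 0 with L. salivarius. The median of all 8 SNAR genes was also nearest to 0 with L. salivarius (-0.20). It was -0.52 with S. thermophilus and -0.81 with L. rhamnosus, so the other arrays did not keep the same order. The 1072 microRNA genes had a median of -0.01, but only 153 of them reached the median gene signal. The part of RNA recovery in the SNAR values was not tested.

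**Figure D4:**
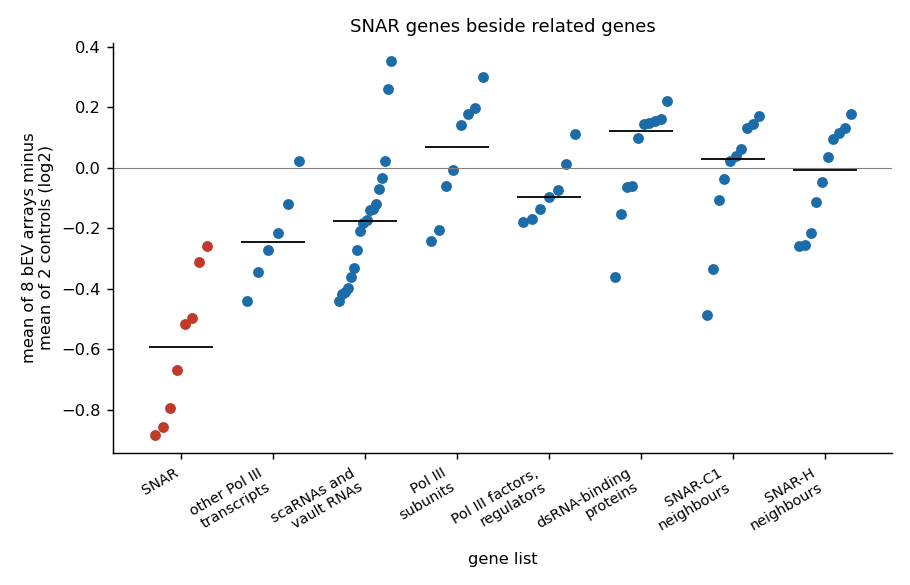
Mean of the 8 bEV arrays minus mean of the 2 controls (vertical axis, log2) for each measured gene of 8 lists (horizontal axis), with 1 point per gene, ordered by value within a list, and a black line at the list median. The SNAR genes, in red, have a median of -0.59, with or without the chosen pair, and the other lists have medians of -0.24 to 0.12. The vault RNAs stand both with the other transcripts of RNA polymerase III and with the scaRNAs.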

How the data were processed

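The authors deposited 1 log2 signal for each probe set and array, over 10 arrays. The labels name MAS5, and the methods name GeneChip Command Console Software. How background was corrected and arrays were normalized is not given in the sources. Array medians were 3.29 to 3.33, so values were used as deposited. Of 53617 probe sets, 37519 are unnamed here. The others gave 14884 genes, with symbols matched by Entrez ID to RefSeq GRCh38.p14. The number of arrays limits the precision. limma 3.58.1 (R 4.3.3) was fitted over all genes for 8 bEV arrays against 2 controls, with Benjamini-Hochberg adjustment, 8 residual and 5.14 prior degrees of freedom, and was tested on simulated data. The fit put the 8 strains, each at its own dose, in a single group, though they are not replicates of a condition. Its p-values reflect only spread among these arrays, which includes differences of strain and dose and may in part be technical. Other steps used Python 3.11.15 and pandas 2.3.3.

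The pair of genes and all lists were chosen with earlier results of these data known. The list of RNAs under 200 bases was added later. Genes were named by a rule: all SNAR genes, the 3 largest changes of a list, measured neighbours and the 5 genes most alike to each member. RMRP, EIF2AK2 and DHX9 were named for their roles, after their values were seen. Alternatives were each array left out, quantile normalization, median centring, values floored at 1.80 (the 10th percentile), probe sets of a gene averaged, all probe sets, genes at or above the median signal, trend and robust variance, and a fold change of 2. The second set of SNAR-C1 values, and the array left out in the comparison of SNAR-H with SNAR-C1, were added after seeing the data. Sequences of the SNAR genes were not used here.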

Additional observations from a re-analysis of the deposited data

Results flagged for a closer look

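In 4 of 48 genes looked at, 1 of the 8 bEV arrays stood apart from the other 7, with a gap of more than 0.526 of the whole range. Chance gives about 1 in 20 such groups. SNAR-D was 10.00 with L. salivarius against 9.27 to 9.61 with the others (0.533 of the range). The others were POLR2F with L. acidophilus (4.10 against 4.27 to 4.41, 0.554 of the range), MAX with L. rhamnosus (5.86 against 6.09 to 6.29, 0.528 of the range) and LHB with L. plantarum (3.71 against 4.22 to 4.53, 0.619 of the range).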

How the results depend on the processing

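The mean log2 difference of SNAR-C1 stayed between -0.61 and -0.43, and that of SNAR-H between -1.01 and -0.75, under all alternatives run. With each array left out in turn, the ranges were -0.54 to -0.45 and -1.01 to -0.75. The difference of SNAR-H minus that of SNAR-C1 was then -0.49 (without control 2) to -0.28 (without control 1), and -0.27 with the second set of SNAR-C1 values. The number of bEV arrays lower by 1.5-fold was 1 to 2 for SNAR-C1 and 6 to 7 for SNAR-H in those runs. It was 1 for SNAR-C1 without L. rhamnosus or without L. plantarum, the arrays that made up the count. For SNAR-C1 it was 5 with all probe sets (median of the 5) and 5 with the second set of values, and 0 at a fold change of 2. For SNAR-H it was 3 at a fold change of 2. The mean difference of SNAR-G1 reversed to 0.049 without control 1, and was -0.67 without control 2. SNAR-I had -0.12 and -0.40 in these runs. The adjusted p of SNAR-G2 ranged from 0.0714 (without L. salivarius) to 0.526, and that of SNAR-D from 0.122 to 0.570. The number of genes called by limma was 0 with any bEV array left out. It did not stay at 0 without control 2, a run whose count is not given because it leaves 1 control array. With all 53617 probe sets, named or not, fitted in place of genes, 4 probe sets were called. Without a test, 112 genes passed 1.5-fold. Of the 52 listed genes, 0 passed limma in any run. No paired analysis was possible because the labels number only the controls, and nothing in them ties a bEV array to a control. With 1 array per bEV and 2 controls, differences between single strains have no replicate error.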
